A study of Mus musculus with 6 samples.

Results

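The genes described here encode the proteins that modify, fold, export, trim and crosslink collagen: 35 genes chosen by function and matched by symbol to the deposited expression table. All 35 were found, each as 1 of its 23934 rows. They were measured in sorted mouse skin cells at day 50, in 3 control and 3 Zfp750 knockout libraries. Zfp750 (ZNF750 in humans) is a transcription factor that promotes differentiation of the epidermis. Knockout samples are labelled Zfp750 fl/fl, and the recombinase, Lrig1-CreER or Lrig1-CreERT2, was heterozygous (+/-) in every sample of both groups. It was driven from Lrig1, a gene of the upper hair follicle, so deletion is restricted to cells that expressed Lrig1 and their descendants. Lrig1 RNA was present in every library, at 585 to 2082 normalized counts among controls and 1577 to 2089 among knockouts. Which of the sorted cells held it was not tested. Among the controls, 1 was wt/wt and 2 were wt/fl for the floxed allele, so control libraries also include samples heterozygous for it that carry the recombinase. Pups of all 6 samples were given 4-hydroxytamoxifen, which activates the recombinase, from day 4 to 7 or else from day 5 to 8, and the labels do not say which was used for which sample. The cells came from mice labelled as expressing the red protein tdTomato. Its reporters usually sit at Rosa26, a locus given as -/- for 5 samples and +/- for 1 control, so how the cells came to carry it is unclear from the labels. Table columns show a group and an S number but no sample title, so the libraries are named by those numbers, S2 to S4 for controls and S5 to S7 for knockouts, and values are listed in that order. Since no label states that the libraries come from separate mice, p-values reflect the spread between these libraries only, part of which may be technical.

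Fibrillar collagen is made in the endoplasmic reticulum as procollagen. There, prolyl 4-hydroxylases stabilise the triple helix, lysyl hydroxylases and galactosyltransferases prepare the crosslinking sites, and the chaperone HSP47 and prolyl isomerases keep the chains foldable. After export in large carriers the propeptides at both ends are cut off, and lysyl oxidases crosslink the resulting fibrils in the matrix. In skin this work is done mainly by dermal fibroblasts.

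Fibroblast markers were abundant in every library of these sorted skin cells. The summed level of 10 fibroblast markers was 84085 to 130731 normalized counts in the controls and 113178 to 144655 among knockouts, and that of 10 basal and follicle keratinocyte markers 1193 to 30306 and 5365 to 27748. No marker on either list was at 0 in any library. Summed mast cell markers (9 genes) were 76.2 to 701 among controls and 1633 to 5504 among knockouts, with Tpsab1 and Fcer1a at 0 in all controls and Ms4a2 at 0 in S2. Summed fat cell markers (7 genes) were 137 to 241 and 356 to 9099, with Adipoq at 0 in S2 and Lep at 0 in S2 and S6. Of 8 cartilage and bone markers, 6 were in the table, with sums of 781 to 2012 and 2458 to 3651 and Comp at 0 in S2. Among these 6, 3 lay wholly higher in the knockout and 1, Sp7, wholly lower, at 40.4 to 89.9 and 4.77 to 38.2. Spp1 differed most, at 14.0 to 17.7 among controls and 989 to 2136 among knockouts. The sums of these 3 lists had groups that did not overlap, and the part of these cell types in the results below was not tested. Control S4 and knockout S7 held the most leukocyte marker RNA, 10526 and 15524 against 1802 to 3112 in the other libraries. Both also held the most basal and follicle keratinocyte marker RNA, 30306 and 27748 against 1193 to 8025 in the other libraries. Zfp750 itself was 41.9, 3.75 and 314 in controls S2 to S4 and 4.90, 1.82 and 7.16 in knockouts S5 to S7 (exact permutation p = 0.3). Too low to be tested across genes, it was inside the knockout range in S3, so it does not check the label of S3. In such bulk libraries, fewer cells of a type and less RNA per cell cannot be told apart.

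Collagen-processing genes did not move as a block. Of the 35, 3 rose in the knockout (P4ha3, P3h2 and Tmem38b), 4 fell (Pcolce2, Creb3l1, P4ha2 and Fkbp14) and 28 were not called at an adjusted p under 0.05 in a limma fit across all 15935 genes tested. All 35 passed the filter on low values. Over all genes tested, 6.71% were called, 4.12% higher and 2.59% lower. The median log2 fold change of the 35 was -0.32, and that of all genes 0.014. In 15 of the 35 the 3 knockout values lay wholly above (5) or wholly below (10) the 3 control values. Of all genes tested, 28.8% had such groups, 15.7% above and 13.1% below. Rescaling every library to a common total moved the median of all genes to 0.31 and that of the 35 to 0.0055, and raised the share of higher calls over all genes from 61.4% to 78.9%, so changes are stated relative to the deposited scaling. All 7 calls held under that rescaling.

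**Figure D1:**
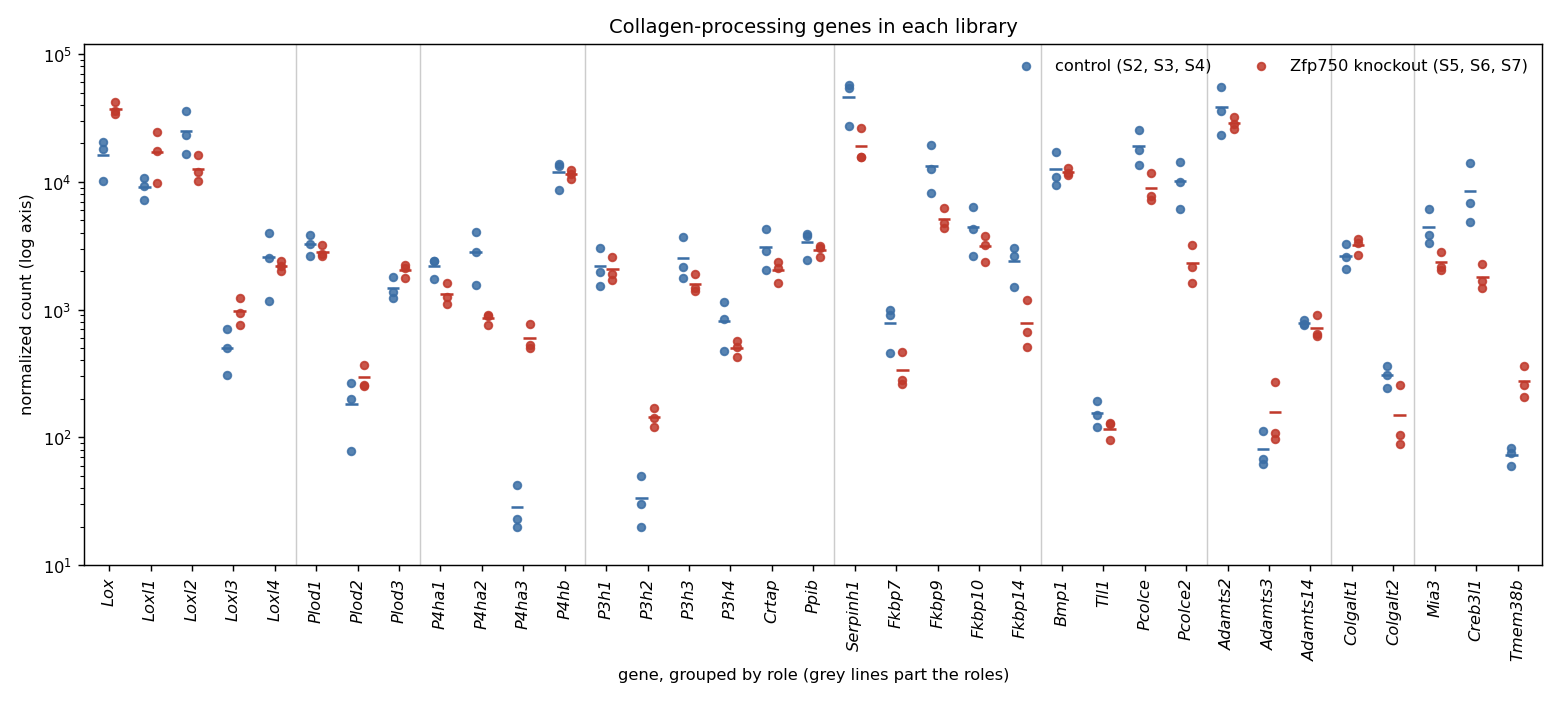
Normalized counts of the 35 genes on a log axis, 1 point per library (blue, control S2 to S4; red, knockout S5 to S7), with a bar at each group mean and grey lines between roles. Lox, Loxl3, P4ha3, P3h2 and Tmem38b stand wholly higher in the knockout, and Loxl2, P4ha1, P4ha2, Serpinh1, Fkbp9, Fkbp14, Pcolce, Pcolce2, Mia3 and Creb3l1 wholly lower.

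The count of calls rested on single libraries. Without control S2 or knockout S6 it was 1, without S7 it was 2, without S3 it was 5, without S5 it was 7, and without control S4 it was 14. P4ha3 was called in all 6 of these fits. Of these fits, only the one without S4 called P4ha1, Loxl3, P3h4, Serpinh1, Fkbp7, Fkbp9 and Pcolce, which the main fit did not call. The other 5 did not call them. Control S4 was the lowest control for 26 of the 35 genes and control S3 the highest for 24, while knockout S5 was the highest knockout for 28 and S6 for 0. S3 also had the highest Col1a1 value of the controls and S4 the lowest.

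The gene called in every fit, P4ha3, belongs to the prolyl 4-hydroxylases, which hydroxylate proline in the collagen chain. The enzyme is a tetramer of catalytic alpha subunits, encoded by P4ha1, P4ha2 or P4ha3, and the beta subunit P4HB, which is also a protein disulfide isomerase. P4ha3 (ENSMUSG00000051048, chromosome 7, 99934727 to 99968907 in the table's own coordinates) was 22.9, 19.98 and 42.1 normalized counts in controls S2 to S4 and 532, 501 and 773 in knockouts S5 to S7. Every knockout value was more than 10 times every control value. The mean went from 28.3 ± 11.99 to 602 ± 149 (SD, n = 3 each), 21.3-fold higher. This was a log2 fold change of 4.05 ± 0.29 (SE, limma adjusted p = 0.000782), and leaving out any 1 library gave 3.85 to 4.29. The control values stand for 18, 16 and 50 estimated reads, and the highest control, S4, had an exact 95% Poisson interval of 31.2 to 55.4, which covers counting error only.

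P4ha2 (ENSMUSG00000018906, chromosome 11, 53990921 to 54022492) fell. It was 2849, 4027 and 1572 in controls S2 to S4 and 907, 892 and 759 in knockouts S5 to S7, with no overlap. The log2 fold change was -1.62 ± 0.32 (SE, limma adjusted p = 0.0289). Of the 6 fits that each left out 1 library, the one lacking S4 alone kept this call, and the others gave adjusted p-values of 0.0552 to 0.121. P4ha1, the isoform of most tissues, was 2392, 2401 and 1746 among controls and 1625, 1255 and 1100 among knockouts (-0.72 ± 0.21, adjusted p = 0.0892; 0.0488 without S4). Its groups did not overlap, but the test did not call it. P4hb was 8696 to 13883 among controls and 10572 to 12495 among knockouts (-0.022 ± 0.24, adjusted p = 0.967), so the groups overlapped almost fully.

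Shares within the alpha subunit family do not depend on library scaling. Per kilobase of exon (union of the exons in GENCODE M21), P4ha3 took 0.698%, 0.516% and 1.94% of the summed alpha subunit level in the controls and 23.9%, 26.3% and 38.8% among knockouts. P4ha2 took 43.7%, 52.2% and 36.5% and then 20.5%, 23.5% and 19.1%. P4ha1 overlapped, at 47.2% to 61.5% and 42.0% to 55.6%. Such shares within families were not among the planned tests and are given as descriptions.

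The promoters of these 3 genes are shown because P4ha3 rose and P4ha2 fell while P4ha1 was not called. Each sequence is the 250 bases before the RefSeq transcript start in GRCm38.p6, on the plus strand, with every hypoxia element core (ACGTG or GCGTG, on either strand) in capitals. The stretches are chr10:59323046-59323295 for P4ha1, chr11:54100674-54100923 for P4ha2 and chr7:100285270-100285519 for P4ha3.
P4ha1: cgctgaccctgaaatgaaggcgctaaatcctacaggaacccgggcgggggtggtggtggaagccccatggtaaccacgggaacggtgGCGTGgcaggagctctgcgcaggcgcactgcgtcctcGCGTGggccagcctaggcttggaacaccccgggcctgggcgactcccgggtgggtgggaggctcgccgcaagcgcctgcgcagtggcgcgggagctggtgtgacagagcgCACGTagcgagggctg
P4ha2: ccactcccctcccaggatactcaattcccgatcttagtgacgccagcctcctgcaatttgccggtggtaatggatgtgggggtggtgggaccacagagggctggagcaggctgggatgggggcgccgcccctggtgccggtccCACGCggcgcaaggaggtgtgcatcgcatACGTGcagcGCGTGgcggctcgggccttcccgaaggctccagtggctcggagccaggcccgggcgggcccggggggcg
P4ha3: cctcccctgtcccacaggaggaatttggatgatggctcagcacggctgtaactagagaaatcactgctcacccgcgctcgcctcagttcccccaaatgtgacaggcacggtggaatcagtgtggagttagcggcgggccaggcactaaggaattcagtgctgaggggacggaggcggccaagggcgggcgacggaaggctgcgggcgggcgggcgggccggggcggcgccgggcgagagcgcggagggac
The stretches of P4ha1 and P4ha2 each hold 3 such cores and that of P4ha3 holds 0. P4ha3 has 5 Sp1 boxes (GGGCGG, either strand), P4ha2 has 2 and P4ha1 has 1, at GC contents of 67.2%, 70.0% and 69.6%. A match is a description of letters, not a site in use.

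RefSeq windows of 300 bases (250 before and 50 after the start) matched 23 of the 35 genes. A gene with several windows counted if any of them held the motif, as for Fkbp14. The core ACGTG was in the windows of 11 of the 23, and 21.8% of all 27025 genes with a window had it. GCGTG, which overlaps ACGTG in its last 4 letters, was in 14 of 23 (35.2% of all genes), the CREB core TGACGT in 4 of 23 (8.37%) and GGGCGG in 19 of 23 (38.2%). The bipartite ER stress element was in 0 of 23 and in 0.137% of all genes. The set of all genes was not matched to the 23 for expression or base composition, and no test was run on these shares. Of the 7 called genes, P4ha2 and Fkbp14 had an ACGTG core, and P4ha3 and Pcolce2 had neither hypoxia core. Windows for Lox, Loxl1, Loxl2, Loxl3, Plod2, P3h2, P3h4, Fkbp10, Bmp1, Colgalt2, Creb3l1 and Tmem38b were not analysed here.

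Prolyl 3-hydroxylation is a rarer modification, made in fibrillar collagen by a complex of P3H1, the helper protein CRTAP and the isomerase cyclophilin B (Ppib). P3H2 acts mainly on basement membrane collagen. P3h2 (ENSMUSG00000038168, chromosome 16, 25778038 to 25924535) rose from 30.3, 20.03 and 49.97 in controls S2 to S4 to 141, 121 and 171 in knockouts S5 to S7. All knockout values lay above all control values, a mean difference of 4.31-fold. On the log2 scale the difference was 1.90 ± 0.32 (SE, limma adjusted p = 0.0162), and the call was lost without S2, S6 or S7 (adjusted p = 0.0616 to 0.0750). The values are low: S3 rests on 16 estimated reads and knockout S6 on 133.

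The complex itself was not called. P3h1 was 1526 to 3043 among controls and 1705 to 2577 among knockouts (-0.046 ± 0.28, adjusted p = 0.941). Crtap was 2055 to 4303 and 1610 to 2343 (-0.56 ± 0.28, adjusted p = 0.289), and Ppib 2429 to 3883 and 2585 to 3127 (-0.17 ± 0.22, adjusted p = 0.683). The groups of all 3 overlapped. The ratio of Crtap to P3h1 was 1.46, 1.41 and 1.35 among controls and 0.909, 0.944 and 1.12 among knockouts. This and the other ratios between members were chosen after their values were seen and carry no test; of the pairs computed, Plod2 to Plod1 and Adamts2 to Adamts14 had groups that overlapped. P3h3 and P3h4, whose products work with lysyl hydroxylase 1, had log2 fold changes of -0.61 ± 0.28 and -0.62 ± 0.31 (adjusted p = 0.244 and 0.286; P3h4 0.0436 without S4). Their values overlapped between the groups.

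Lysyl hydroxylases set up the crosslinks that depend on hydroxylysine, and PLOD2 is the enzyme of the telopeptides, the chain ends where lysyl oxidase acts. None of the 3 was called. Plod1, the member with the highest mean, was 3824, 3279 and 2621 in controls S2 to S4 and 2709, 2607 and 3221 in knockouts S5 to S7 (-0.18 ± 0.19, adjusted p = 0.626). Plod2 was 77.7 to 267 among controls and 253 to 372 among knockouts (0.80 ± 0.42, adjusted p = 0.298), with S4 inside the knockout range. Plod3 was 1226 to 1812 and 1754 to 2223 (0.47 ± 0.19, adjusted p = 0.194). The galactosyltransferases that place sugar on hydroxylysine were not called either. Colgalt1, the higher of the pair in mean, was 2597, 3237 and 2066 among controls and 3554, 2680 and 3307 among knockouts (0.29 ± 0.21, adjusted p = 0.462). Colgalt2 was 242 to 365 and 88.3 to 256 (-1.11 ± 0.39, adjusted p = 0.138), and was called lower without S5 (adjusted p = 0.0251). S5 was the knockout that overlapped the controls.

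All 5 genes of the chaperone and isomerase group had negative log2 fold changes, and 1 of them fell by the test. Fkbp14 (ENSMUSG00000038074, chromosome 6, 54554589 to 54574294) encodes an isomerase of the endoplasmic reticulum that acts on collagen. It was 2613, 3056 and 1513 in controls S2 to S4 and 1182, 663 and 513 in knockouts S5 to S7, with S5 nearest the controls but below them. The log2 fold change was -1.62 ± 0.36 (SE, limma adjusted p = 0.0419). The call did not hold when S2, S3, S6 or S7 was left out (adjusted p = 0.114 to 0.158).

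Serpinh1 encodes the collagen-specific chaperone HSP47. Its mean level per kilobase of exon was the highest of the 35 genes in both groups, 18989 among controls and 7859 among knockouts. Lox was close among knockouts, at a mean of 7796, and lay above Serpinh1 in S6 and S7. The normalized counts of Serpinh1 were 54580.4, 57321 and 27270.0 in controls S2 to S4 and 26470, 15560 and 15566 in knockouts S5 to S7. S4 was close to S5, and the groups did not overlap (-1.24 ± 0.39, adjusted p = 0.110; 0.0368 without S4 and 0.0946 to 0.317 in the other 5 fits that left out 1 library). Fkbp9 was 12521, 19335 and 8243 among controls and 6228, 4344 and 4762 among knockouts, also without overlap (-1.32 ± 0.32, adjusted p = 0.0565; 0.0178 without S4). Fkbp7 was 459 to 995 and 262 to 464 (-1.17 ± 0.34, adjusted p = 0.0899; 0.0212 without S4), and S5 reached just into the control range. Fkbp10, whose product also takes part in telopeptide lysyl hydroxylation, was 2616 to 6351 and 2368 to 3795 (-0.43 ± 0.33, adjusted p = 0.486).

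Summed over the group, these 5 genes took 0.385%, 0.336% and 0.248% of the control totals and 0.228%, 0.150% and 0.151% of the knockout totals, a separation at the smallest exact permutation p of 0.1. Serpinh1 held most of this sum in every library, so the sum largely repeats the separation of that gene. Within the FK506-binding family, Fkbp10 took 22.0% to 23.2% of the level per kilobase in the controls and 32.7% to 38.6% among knockouts. The share of Fkbp9 went from 57.9% to 62.5% down to 49.9% to 53.1%, and that of Fkbp14 from 7.89% to 9.65% down to 4.38% to 7.56%.

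**Figure D2:**
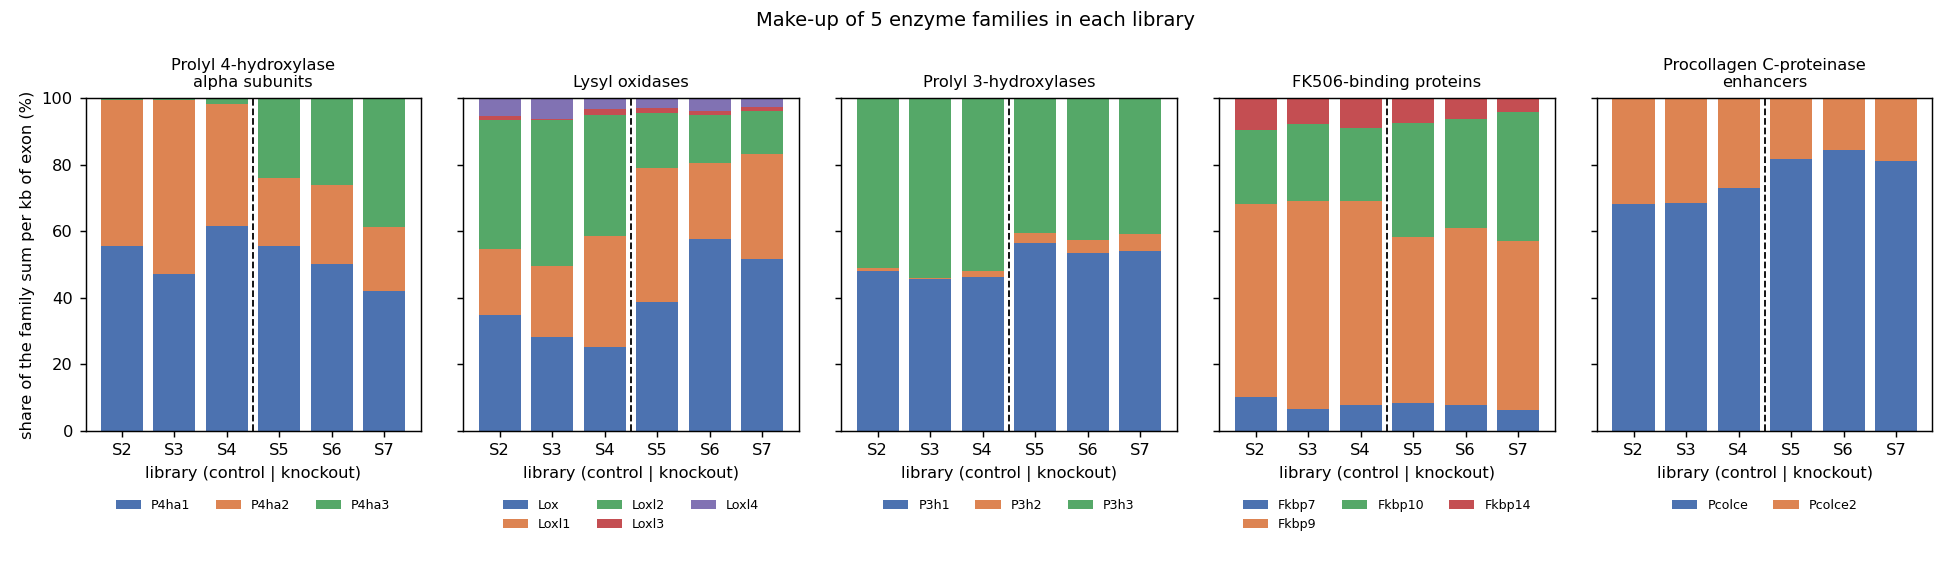
Share of each gene in the summed level per kilobase of exon of its family (%), 1 stacked bar per library, with controls S2 to S4 left and knockouts S5 to S7 right of the dashed line. P4ha3 fills 23.9% to 38.8% of the alpha subunit bars in the knockouts against at most 1.94% in the controls, and Loxl2 fills 36.4% to 43.7% of the lysyl oxidase bars in the controls against 12.9% to 16.3% among knockouts.

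Among the genes of export and regulation, 1 fell and 1 rose. Creb3l1 encodes OASIS, a membrane-bound transcription factor of the endoplasmic reticulum that is known for activating Col1a1 in bone. Creb3l1 (ENSMUSG00000027230, chromosome 2, 91812673 to 91854848) was 6796, 14012 and 4845 in controls S2 to S4 and 2278, 1468 and 1668 in knockouts S5 to S7. The lowest control lay above the highest knockout, and the mean was 4.74-fold higher in the controls. As a log2 fold change this was -2.12 ± 0.38 (SE, limma adjusted p = 0.0213), lost without S2, S6 or S7 (adjusted p = 0.0761 to 0.0977).

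Tmem38b (ENSMUSG00000028420, chromosome 4, 53826045 to 53862020) encodes TRIC-B, a cation channel of the endoplasmic reticulum whose loss impairs collagen making. It was 74.97, 59.95 and 83.3 among controls and 209, 255 and 364 among knockouts, without overlap. The log2 fold change was 1.77 ± 0.26 (SE, limma adjusted p = 0.00989), and the call was narrowly lost without S2 or S6 (adjusted p = 0.0506 and 0.0519). Mia3 encodes TANGO1, which loads procollagen into export carriers. Its values were 3869, 6173 and 3309 in controls S2 to S4 and 2843, 2140.1 and 2039.9 in knockouts S5 to S7, again without overlap (-0.89 ± 0.26, adjusted p = 0.0939).

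The proteinases that cut procollagen were not called, but an enhancer of C-propeptide cutting fell. Pcolce2 (ENSMUSG00000015354, chromosome 9, 95519654 to 95580150), which encodes a procollagen C-proteinase enhancer, was 10056, 14270.1 and 6145 in controls S2 to S4 and 3189, 1603 and 2172 in knockouts S5 to S7. Every knockout value lay below every control value. The log2 fold change was -2.10 ± 0.36 (SE, limma adjusted p = 0.0175), lost without S2, S6 or S7 (adjusted p = 0.0653 to 0.0832). Its paralog Pcolce was 17830.4, 25662 and 13628 among controls and 11787, 7188 and 7711 among knockouts, without overlap (-1.08 ± 0.31, adjusted p = 0.0870; 0.0487 without S4). Pcolce2 took 27.2% to 31.8% of the paired level per kilobase in the controls and 15.6% to 18.9% among knockouts.

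The C-proteinase gene itself, Bmp1, was 9534 to 17065 among controls and 11321 to 12765 among knockouts (-0.028 ± 0.26, adjusted p = 0.963). The ratio of Bmp1 to Pcolce was 0.615, 0.665 and 0.6996 among controls and 0.989, 1.58 and 1.66 among knockouts, a description with no test. The related proteinase gene Tll1 was 121 to 193 and 95.1 to 129 (-0.36 ± 0.25, adjusted p = 0.420). Of the N-propeptide proteinases, Adamts2 had the highest mean, with 35649, 55725 and 23245 in controls S2 to S4 and 32152, 26031 and 28515 in knockouts S5 to S7 (-0.32 ± 0.37, adjusted p = 0.654). All 3 knockout values lay inside the control range. Adamts14 (-0.14 ± 0.18, adjusted p = 0.699) and Adamts3 (0.80 ± 0.42, adjusted p = 0.298) overlapped as well, and Adamts3 rested on levels of 62.5 to 112 among controls and 97.1 to 274 among knockouts.

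Lysyl oxidases, copper enzymes that oxidise lysine in collagen and elastin, gave 0 calls among 5 genes, with values that pointed in opposite ways. Lox was 18219, 20619 and 10189 in controls S2 to S4 and 33784, 35981 and 41982 in knockouts S5 to S7, every knockout value lying above every control value. The mean was 2.28-fold higher in the knockouts (log2 fold change 1.25 ± 0.33 SE, limma adjusted p = 0.0667). On libraries rescaled to a common total, with or without collagen genes, Lox was called higher. Loxl2, an enzyme of fibril and basement membrane crosslinking, was 23120.2, 36004 and 16565 among controls and 16117, 10117 and 11881 among knockouts (-0.94 ± 0.34, adjusted p = 0.153), with S5 just below S4.

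The ratio of Lox to Loxl2 was 0.788, 0.573 and 0.615 among controls and 2.096, 3.56 and 3.53 among knockouts, also a description. Per kilobase of exon, Loxl2 took a larger share of the family than Lox in each control library (36.4% to 43.7%, Lox 25.3% to 34.7%). Lox took a larger share than Loxl2 in each knockout library (38.7% to 57.5%, Loxl2 12.9% to 16.3%). Loxl1 took more than Lox in control S4 (33.2%, Lox 25.3%) and in knockout S5 (40.4%, Lox 38.7%). Loxl3 was 503, 306 and 701 among controls and 1224, 759 and 937 among knockouts (0.99 ± 0.32, adjusted p = 0.114; 0.0437 without S4). Loxl1, known for its part in elastic fibres, was 7192 to 10719 and 9881 to 24357 (0.86 ± 0.35, adjusted p = 0.199), and S6 lay among the controls. Loxl4 was 1175 to 3972 and 1997 to 2420.1 (-0.054 ± 0.40, adjusted p = 0.952). As a sum, the 5 genes took 0.234% to 0.277% of the control totals and 0.382% to 0.466% of the knockout totals (exact permutation p = 0.1). As a share of the total without collagen genes the sums overlapped, at 0.290% to 0.424% and 0.415% to 0.513% (exact permutation p = 0.2).

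**Figure D3:**
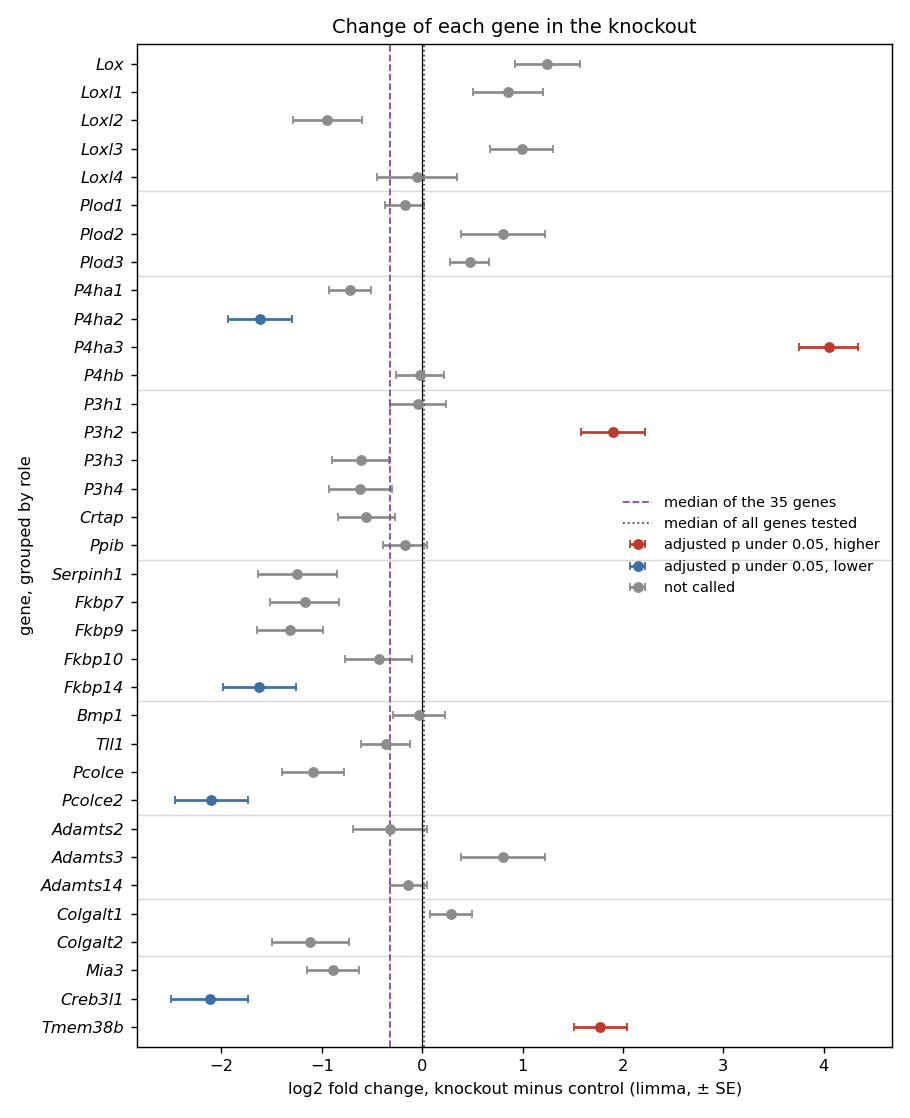
Log2 fold change of each gene, knockout minus control, with its limma SE, ordered by role from top to bottom. Red points (P4ha3, P3h2, Tmem38b) were called higher and blue points (P4ha2, Fkbp14, Pcolce2, Creb3l1) lower at an adjusted p under 0.05; the dashed line at -0.32 is the median of the 35 and the dotted line at 0.014 that of all genes tested.

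Col1a1, the main substrate chain, was 2150000, 4570000 and 1430000 in controls S2 to S4 and 407741, 333927 and 400230 in knockouts S5 to S7 (-2.67 ± 1.21 SE on the log2 scale, limma adjusted p = 0.237). The groups did not overlap although the test did not call it. Its moderated SE also draws on other genes of like level, so the missing call does not measure the spread of Col1a1 alone. The partner chain Col1a2 was 757292 to 2390000 and 185734 to 216530 (-2.71 ± 0.92, adjusted p = 0.131), and Col3a1 647999 to 1600000 and 246395 to 409011 (-1.68 ± 0.93, adjusted p = 0.325). The highest Col1a1 values carry 3 significant digits in the table. Collagen genes together held 19.3% to 34.7% of the control totals and 7.94% to 9.18% of the knockout totals.

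Relative to Col1a1 in the same library, 34 of the 35 genes were higher in all knockout libraries than in any control, the exception being Colgalt2, whose groups overlapped. This share is near the background, since 95.0% of all other genes tested behaved that way when divided by Col1a1, while 0.113% were lower in that sense. The median difference of the 35 was 2.35 on the log2 scale, and that of all genes 2.68. Per 100000 units of Col1a1, P4ha3 was 1.06, 0.437 and 2.94 among controls and 131, 150.1 and 193 among knockouts. Lox was 847, 451 and 713 among controls and 8286, 10775 and 10489 among knockouts. Serpinh1 was 2539, 1254 and 1907 among controls and 6492, 4660 and 3889 among knockouts. Its knockout values were thus lower as deposited and higher per unit of the substrate transcript. For each of these 3 genes the exact permutation p was 0.1, the smallest possible.

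Creb3l1 stayed closest to Col1a1 of the 35 genes. It was 316, 307 and 339 per 100000 units of Col1a1 in controls S2 to S4, although Col1a1 itself differed by more than 3 times among them, and 559, 440 and 417 in knockouts S5 to S7. Its largest ratio over the 6 libraries was 1.83 times its smallest, where the median over all genes was 14.8 times. Of 15934 genes, 11 had a smaller spread. In rising order these began with Col1a2 (1.16 times), Igfbp5 (1.38 times), Scara5 (1.55 times) and Sparc (1.59 times). Chd5, Jakmip3, Rpgrip1l, Glrb, 5031425F14Rik, Minar2 and Tgfbi (1.82 times) followed, so the 11 were not only matrix genes. Pcolce2 came next among the 35, at 2.51 times, then P4ha2 at 3.06 times and Fkbp9 at 3.61 times. This ordering was computed after the values were seen and carries no test.

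Other references gave another picture. Against summed fibrillar collagens, 32 of the 35 were higher in all knockout libraries, again near the background of 92.3%. Against the mean log2 level of 10 fibroblast markers, which differed by -0.015 between the groups, 5 were higher (Lox, Plod3, P4ha3, P3h2 and Tmem38b), beside 8.07% of all genes. On that scale 13 were lower, beside 11.4% of all genes: Loxl2, P4ha1, P4ha2, P3h3, Serpinh1, Fkbp7, Fkbp9, Fkbp14, Pcolce, Pcolce2, Colgalt2, Mia3 and Creb3l1. Of these markers Pdgfra (1.24 ± 0.21 SE) and Pdgfrb (1.00 ± 0.22) were called higher and Dpp4 (-1.80 ± 0.28) lower (limma adjusted p = 0.0165, 0.0384 and 0.0127). The Dpp4 call was lost without S2 or S6, that of Pdgfra without S2, S6 or S7, and that of Pdgfrb without any 1 of the 6 libraries.

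**Figure D4:**
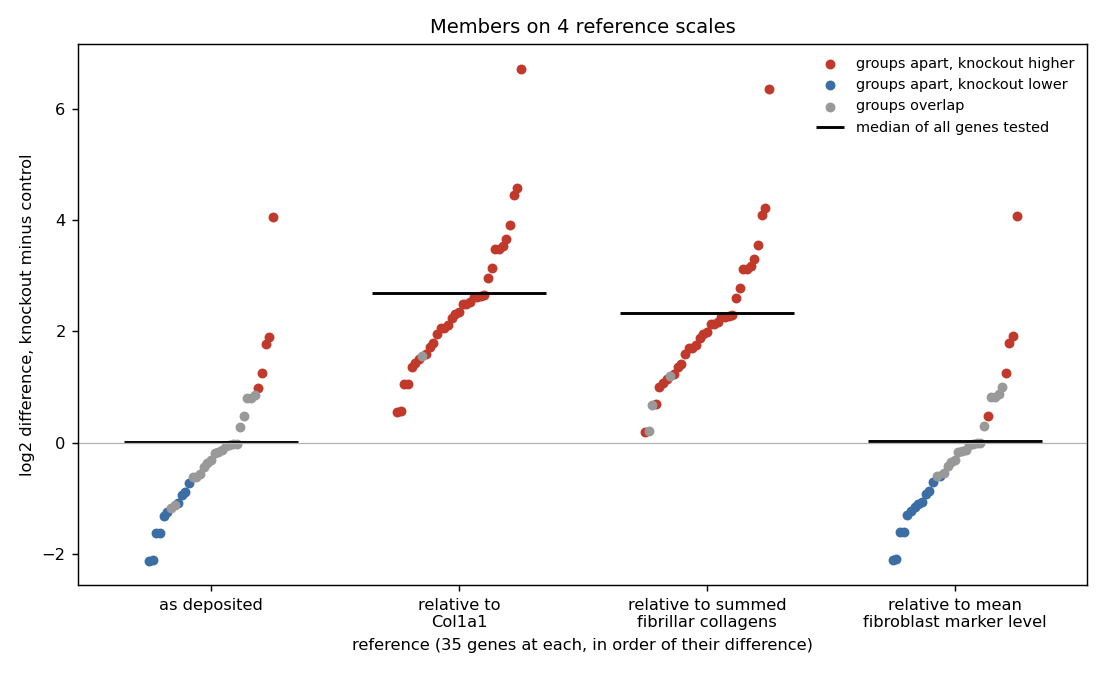
Log2 difference of the 35 genes, knockout minus control, as deposited and relative to Col1a1, to summed fibrillar collagens and to the mean fibroblast marker level; red and blue points have groups that do not overlap, grey points overlap, and the black bar is the median of all genes tested. Relative to Col1a1 the 35 points and the median of all genes (2.68) all lie above 0, while on the deposited and fibroblast marker scales they lie on both sides of it.

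Lists of neighbouring steps gave the collagen genes a setting. Of 16 general folding genes of the endoplasmic reticulum 0 were called (median log2 fold change -0.011), with the chaperone genes Hspa5 at -0.35 ± 0.31 and Calr at 0.024 ± 0.25. Of 22 genes of export and secretory transcription 0 were called and 18 had negative values (median -0.31). Among them Kdelr2 was at -0.88 ± 0.34 and Atf4 at -0.37 ± 0.33 (limma adjusted p = 0.180 and 0.5503). Of 6 tested genes that supply ascorbate, zinc or copper 0 were called, the zinc transporter genes Slc39a7 and Slc39a13 being at -0.38 ± 0.24 and -0.11 ± 0.23. Over these 3 lists, in that order, the counts at an unadjusted p under 0.05 were 0, 8 and 0, beside 23.2% of all genes.

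The other lists each held at least 1 call, where 6.71% of all genes tested were called (4.12% higher and 2.59% lower). Of 9 tested fibrillar collagens 2 rose, the minor chains Col24a1 (3.02 ± 0.43, adjusted p = 0.00923) and Col27a1 (2.00 ± 0.41, adjusted p = 0.0306). Of 24 other collagens 6 rose, Col25a1 (5.05 ± 0.52), Col12a1 (4.49 ± 0.36) and Col7a1 (3.76 ± 0.25) among them, and 5 fell, including the basement membrane chain Col4a5 (-2.50 ± 0.26). Control values of Col25a1 were 0 to 4.21, near the floor of 3 reads, and its knockout values 153 to 687. Among 12 matrix proteins that bind collagen or lysyl oxidase 2 rose, the periostin gene Postn (2.67 ± 0.40, adjusted p = 0.0102) and the fibromodulin gene Fmod (1.67 ± 0.35, adjusted p = 0.0352). Of 4 proprotein convertases, which activate the propeptide proteinases, Furin (1.12 ± 0.19, adjusted p = 0.0160) and Pcsk5 (1.48 ± 0.25, adjusted p = 0.0175) rose. The other members, not called, were Pcsk6, at 4594 to 6103 among controls and 1218 to 3675 among knockouts (-1.50 ± 0.39, adjusted p = 0.0641), and Pcsk7 (0.36 ± 0.17, adjusted p = 0.250). Of 10 tested hypoxia genes 1 rose, Epas1, which encodes HIF-2 alpha (2.08 ± 0.35, adjusted p = 0.0166). Of 12 TGF-beta genes, Tgfb1 (1.47 ± 0.19, adjusted p = 0.00623) and Ccn2 (2.45 ± 0.52, adjusted p = 0.0358) rose and Tgfbi (-2.15 ± 0.37, adjusted p = 0.0181) fell. Col12a1, Col7a1, Col4a5 and Tgfb1 kept their calls whichever library was left out. Col25a1 passed the filter through its 3 knockout values alone, so only the 3 fits that left out a control tested it. It was called in these, but its call could not be checked with a knockout left out. The calls of Postn and Col24a1 were lost without S6, and Postn also without S2, and the other 7 calls named here were lost in 3 to 5 of the 6 fits.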

How the data were processed

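RNA sequencing libraries of sorted skin cells were compared. The authors deposited 1 table whose header calls its values normalized counts. The signal read from these deposited values is estimated reads over 1 size factor per library. Partek 9.0.20.0202 and TopHat2 2.1.0 appear in the submitters' processing notes, with no role stated. No source used here gives the genome build, annotation or use of strand, so overlapping genes are uncertain. Within a tolerance of 0.05, 78.7% to 81.2% of each library's values up to 1000 reads came out whole, so no count model was run. Estimated depth was 15310170 to 20705368 reads per library.

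The 2-sided moderated test of limma 3.58.1 (R 4.3.3), with its variance trend on mean level, was run on log2(value + 9.15), a pseudocount of 0.5 per 1000000 of the mean total. Fold changes on this scale understate the change of low genes. The 15935 genes tested reached 1 per 1000000 in 3 or more libraries, and Benjamini-Hochberg adjustment ran over all of them. The script was tested on simulated data. Levels relative to Col1a1 and summed levels were compared by exact 2-sided permutation tests, which cannot go below 0.1.

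Members and lists were chosen with earlier results of these data known. By the rule for naming genes, values in every library are given for members that were called or had groups without overlap, or otherwise for the member with the highest mean in its role; context genes were up to 4 called per list, or the 2 with the highest mean. The ratios between members, the shares within families and the spread relative to Col1a1 were chosen after values were seen and carry no test. Planned protein comparisons were not made. Alternatives varied the pseudocount, filter, scaling, variance trend and reference gene, left out each library in turn and added a block.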

Additional observations from a re-analysis of the deposited data

How the results depend on the processing

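Other pseudocounts (0.1 and 2 per 1000000), no filter, a filter of 5 per 1000000, no trend and robust empirical Bayes gave 6 to 8 member calls, beside 7. Rescaling to a common total gave 10, and a common total without collagen genes 11. Leaving out 1 library gave 1 to 14 member calls and 270 to 1237 over all genes, beside 1070 (307 without S2, 545 without S3, 270 without S6 and 435 without S7). Relative to the fibroblast markers 5 members were higher, beside 34 relative to Col1a1. The summed level of the 35 differed by -0.047 on the log2 scale as a share of the total and by -0.36 without collagen genes in it.

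Over single members, 458 of 525 recomputed values kept direction and call, 21 lost a call, 27 gained one and 19 changed sign, none of the last called. On a common total the sign changed for Plod1 (0.15), Bmp1 (0.30), P4hb (0.30), Loxl4 (0.27), P3h1 (0.28), Ppib (0.15), Adamts2 (0.0055) and Adamts14 (0.18). With 1 library left out, Loxl4 ran from -0.53 to 0.34, Bmp1 from -0.20 to 0.22, P4hb from -0.24 to 0.10, P3h1 from -0.27 to 0.22 and Adamts2 from -0.63 to 0.00022.

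A replicate block by the UB numbers in the column names, chosen after seeing the data, gave 18 member calls (3 higher, 15 lower) and 1527 over all genes. It compares only the pairs S2 with S6 and S3 with S7, whose deviations correlated at 0.25 and -0.22. S4 with S7, which do not share a number, correlated at 0.41. The labels do not say what the numbers stand for, and these correlations cannot decide whether libraries with the same number are related. No paired analysis by the titles' replicate numbers was possible because the columns do not carry them.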
